A study of Mus musculus with 4 samples.

Results

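The lymph node cells that the authors labelled Cd8 numbered 2788 of the 10558 cells in the series, and made up 55.9% of the 4988 cells of the lymph node library. They were taken as the cells for which the deposited annotation gives the lymph node as library and Cd8 as cell label, and their counts were joined by cell barcode. The labels and files do not state how that label was assigned. Genes described below may have been used to assign it, so differences between labels are descriptions.

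The series holds 4 samples from mice carrying B16F10 melanoma, a transplantable skin tumor: an RNA library and a T cell receptor library of tumor T cells, and the same pair from lymph node. All 4 carry the strain label RAG1- BW TRP-1 TCR and the treatment label untreated. The strain label names a transgenic receptor, but the lymph node Cd8 cells held 2655 distinct clonotypes in 2669 cells with a clonotype. Per the labels' protocols, tumor-bearing mice received a single cyclophosphamide dose of 250 mg/kg, then TRP1 CD4+ T cells, whose transgenic receptor recognises a melanocyte protein, with tissue collection at day 11 from the transfer. The protocol describes a sort of CD45.1 TRP1 CD4+ and CD4+CD8+ cells for every sample, and the source and cell type labels name tumor for every sample. The titles call the tumor libraries transgenic and endogenous, and the lymph node libraries endogenous only. Most cells of the lymph node library carry the label Cd8, which the printed sort does not name. Cells labelled Cd4 (1873) and Treg (321) in the lymph node, and Tdp (2693) and Cd4 (2451) in the tumor, are set beside the Cd8 cells. The remaining labels were 6 lymph node Tdp cells and, in the tumor, 406 Tcell, 19 Treg and 1 Cd8 cell. Each tissue has 1 RNA library, and the labels do not state the number of mice. No value therefore has a replicate, no test was possible, and each interval is a 95% interval that covers counting error only.

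CD8 T cells recognise peptides on MHC class I through a receptor paired with the CD8 coreceptor, whose chains are encoded by Cd8a and Cd8b1. In the thymus the factor RUNX3 holds the CD8 programme and shuts off Cd4, while ThPOK, encoded by Zbtb7b, does the reverse. In lymph nodes most CD8 cells of an unimmunised mouse are naive and carry homing receptors such as CCR7. A smaller set is memory-like, with the T-box factor Eomes and the IL-2 receptor beta chain, and makes chemokines such as Ccl5 quickly.

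In all, 18119264 UMIs came from the Cd8 cells, and the median cell had 6306 UMIs from 1695 genes. The lymph node Cd4 and Treg cells had medians of 4763 and 5225 UMIs, and the tumor Tdp and Cd4 cells 6633 and 5533. The median share of UMIs from ribosomal protein genes was 44.8% in Cd8 cells, 30.4% in lymph node Treg and 29.5% in tumor Tdp cells. Levels below are CPM, the share of a gene in all UMIs of the cells of a label, scaled to sum to 1000000 over genes. Of 14721 genes, 1768 were at 0 in all tumor cells, and these are called listed at 0 there, with no fold. The libraries share 36 barcodes, of which 26 are in Cd8 cells. Of 10 B cell markers, 3 were at 0 in Cd8 cells, Ms4a1 and Ebf1 among them, and the sum was 223 CPM, against 233 in Cd4 and 548 in Treg cells. The immunoglobulin gene Ighm gave 195 of the 223 CPM. Macrophage, dendritic and neutrophil markers summed to 8.17, 1.16 and 0.0552 CPM.

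The label fitted the coreceptor UMIs in most cells. Cd8a was seen in 86.3% (85.0 to 87.6) and Cd8b1 in 94.3% (93.4 to 95.2) of Cd8 cells, and Cd4 in 4.59% (3.84 to 5.43). Among lymph node Cd4 cells the shares were 1.39%, 9.77% and 50.7%. CD8 transcripts without Cd4 were found in 2607 of 2788 Cd8 cells (93.5%), Cd4 with CD8 in 57 (2.04%), Cd4 without CD8 in 71 (2.55%) and none of the 3 genes in 53 (1.90%). The 71 cells with Cd4 alone went against their label in other genes too. Their level of Nkg7, a granule membrane protein of cytotoxic cells, was 54.9 CPM against 885 in cells with CD8 alone, and Plac8 stood at 0 against 378 CPM. Their level of Cd40lg, the helper cell ligand, was 217 against 7.09 CPM. Tnfrsf4, which encodes OX40, was at 382 against 7.38 CPM, and interleukin 2 (Il2) at 117 against 4.67 CPM. Results that these cells could touch are given below also without cells that hold a Cd4 UMI.

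**Figure D1:**
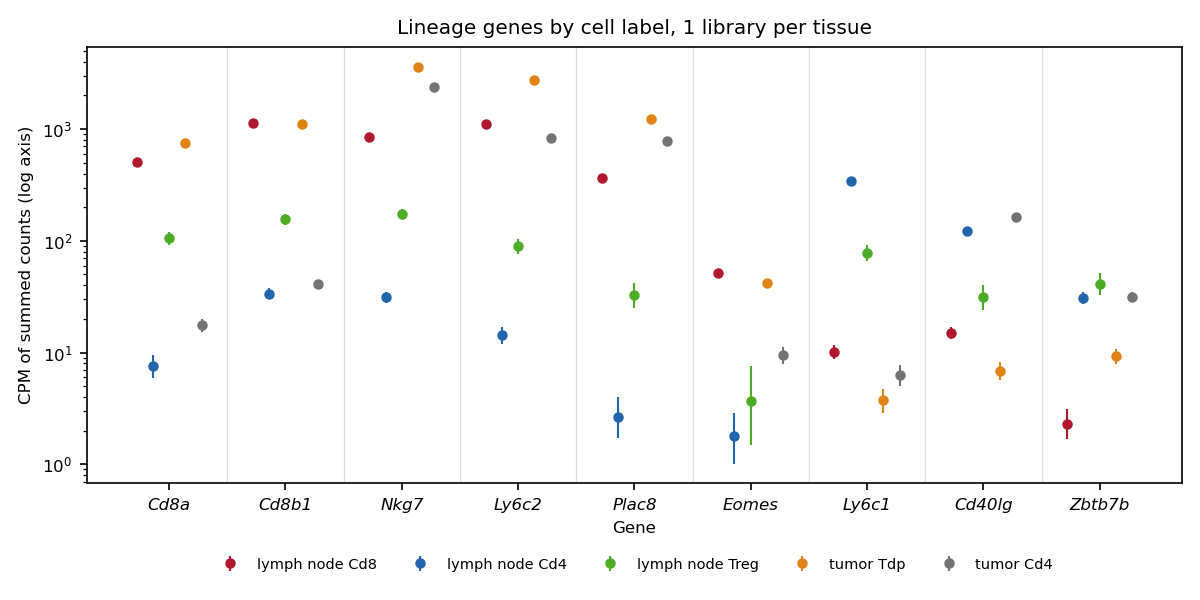
Levels of 9 lineage genes in CPM on a log axis, by label; points are sums over all cells of a label and bars are 95% Poisson intervals for counting error. Lymph node Cd8 cells lie above lymph node Cd4 cells for the first 6 genes, from Cd8a to Eomes, and below them for Ly6c1, Cd40lg and Zbtb7b.

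The marker Ly6c2 stood at 1118 CPM (1103 to 1133) in Cd8 cells, 14.2 in lymph node Cd4, 89.3 in lymph node Treg, 2743 in tumor Tdp and 832 CPM in tumor Cd4 cells. It encodes a GPI-anchored surface protein of the Ly6C antigen. Its neighbour and near copy Ly6c1 ran the other way, at 10.2, 343, 78.3, 3.73 and 6.30 CPM in the same order. In cells, 1980 Cd8 cells held UMIs of Ly6c2 without Ly6c1, 73 held both and 12 held Ly6c1 without Ly6c2. Among lymph node Cd4 cells the numbers were 25, 55 and 990. The pair can share reads, so each level is uncertain to the extent that the counting could not tell them apart. The genes lie on chromosome 15 of GRCm38.p6 (mm10), Ly6c1 at 75044018 to 75048920 and Ly6c2 at 75108161 to 75112066, with 63146 bases between their outer starts. The pair was opposed between lymph node Cd8 and lymph node Cd4 cells, but tumor Cd4 cells too had more Ly6c2 than Ly6c1. The 250 bases before the first transcript start that the RefSeq table lists for each gene are printed for this pair. They are also printed for Nkg7 (chromosome 7, 43437138 to 43438246) and Plac8 (chromosome 5, 100551589 to 100572253). With Ly6c2, these 2 lead the genes higher in Cd8 than lymph node Cd4 cells. For Ly6c1, Ly6c2 and Plac8 the transcript start lies inside the bounds of the gene given here, so the stretch runs partly within them. Each is given 5′ to 3′ on the strand of its gene, and capitals mark matches to the RUNX core ACCACA.
Ly6c2, chr15:75111972-75112221, minus strand: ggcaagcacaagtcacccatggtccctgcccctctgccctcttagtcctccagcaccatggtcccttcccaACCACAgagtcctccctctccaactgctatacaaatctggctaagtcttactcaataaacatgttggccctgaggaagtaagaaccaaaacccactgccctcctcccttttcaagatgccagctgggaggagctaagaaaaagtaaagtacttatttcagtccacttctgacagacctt
Ly6c1, chr15:75048838-75049087, minus strand: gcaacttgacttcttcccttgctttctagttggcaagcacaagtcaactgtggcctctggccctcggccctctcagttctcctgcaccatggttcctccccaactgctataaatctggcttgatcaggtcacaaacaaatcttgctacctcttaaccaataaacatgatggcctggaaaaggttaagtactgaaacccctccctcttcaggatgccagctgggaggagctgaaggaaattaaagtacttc
Nkg7, chr7:43436888-43437137, plus strand: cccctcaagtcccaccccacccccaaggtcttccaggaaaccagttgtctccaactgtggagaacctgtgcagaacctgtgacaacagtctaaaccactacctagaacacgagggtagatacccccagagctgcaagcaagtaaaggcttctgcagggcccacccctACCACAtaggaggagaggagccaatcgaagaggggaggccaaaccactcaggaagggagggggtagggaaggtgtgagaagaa
Plac8, chr5:100572206-100572455, minus strand: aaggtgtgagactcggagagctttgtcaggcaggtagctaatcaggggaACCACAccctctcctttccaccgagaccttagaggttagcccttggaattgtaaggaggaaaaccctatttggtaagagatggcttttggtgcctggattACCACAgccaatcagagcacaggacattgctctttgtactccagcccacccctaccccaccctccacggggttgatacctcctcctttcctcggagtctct
The upstream stretches of Ly6c2 and Ly6c1 aligned over 216 positions, of which 164 (75.9%) were identical. The letters ACCACA, searched on both strands (TGTGGT on the other), are found once before Ly6c2, not before Ly6c1, once before Nkg7 and at 2 places before Plac8. They occur in 14.2% of the 27025 upstream stretches of that length in the RefSeq table. Among the 12 genes named below as highest against Cd4 cells, 10 matched the table by symbol and 5 held the letters (Cst7, S100a6, Plac8, Nkg7 and Ly6c2). Of the 12 lowest, 9 matched and 2 held them (Tspan32 and Trat1). The T-box core TCACAC, read as GTGTGA from the other strand, was found in 12.2% of all stretches, in 3 of the 10 and in 1 of the 9. A match is a description of the letters and not a binding site.

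Set against lymph node Cd4 cells of the same library, Cd8 cells were higher in 8 of 11 counted genes of a CD8 lineage list and 13 of 16 of a memory and innate-like list, described below. The lists overlap, and Nkg7, Ly6c2, Gzmm, Eomes and Xcl1 are among the higher genes of both, so the counts are not separate results. A gene was counted with 20 CPM or more in either label, and called at a 2-fold difference of CPM + 1. Of 4530 genes counted, 96 (2.12%) were higher and 65 (1.43%) lower in Cd8 cells. The median log2 ratio over all counted genes was -0.07. Receptor segments, Cd4, Cd8a and Cd8b1 were left out. With Cd8 cells restricted to those with a CD8 UMI and no Cd4 UMI, 94 genes were higher and 72 lower.

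Plac8, a small cysteine-rich protein of lymphocytes and myeloid cells, had the highest ratio, at 362 CPM (353 to 370) in Cd8 and 2.67 CPM in Cd4 cells, 136-fold apart. It was seen in 67.4% of Cd8 cells, 0.907% of Cd4 and 8.41% of Treg cells. Plac8 was not particular to lymph node Cd8 cells. In the tumor, 96.5% of the cells labelled Tdp held it, and 78.0% of those labelled Cd4. Against lymph node Cd4 cells, Ly6c2 was 78.6-fold and Nkg7 27.6-fold higher, with Nkg7 at 858 against 31.1 CPM. Nkg7 was seen in 90.6% of Cd8 cells at a median of 6306 UMIs and in 1.92% of Cd4 cells at 4763. Thinned to 2000 UMIs per cell, the shares were 72.0% and 1.16%. Both genes were higher still in tumor Tdp cells, where Nkg7 reached 3582 CPM.

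Eomes, the T-box factor of memory and innate-like CD8 cells, stood at 51.8 against 1.78 CPM, a log2 ratio of 4.25. Its counting interval, computed without the added 1 CPM as all such intervals are, was 4.16 to 5.68. Il2rb, the beta chain shared by the receptors for IL-2 and IL-15, was at 185 against 20.2 CPM. Klrd1, which encodes CD94, the partner of NKG2 receptors, was at 163 against 19.7 CPM. Hopx, a homeodomain-only protein found in effector and memory T cells, was at 65.1 against 7.78 CPM. Cst7, the cathepsin inhibitor cystatin F, was at 189 against 27.7 CPM. The remaining 4 of the 12 highest genes were Ctla2a (a cysteine protease inhibitor, 55.9 against 2.78 CPM), Lcn4 (a lipocalin, 67.0 against 3.78 CPM), Ahnak (a large scaffold protein, 102 against 8.12 CPM) and S100a6 (a calcium-binding protein, 232 against 21.3 CPM).

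The lowest gene was Pdlim4, a PDZ and LIM domain protein, at 3.20 CPM in Cd8 and 130 CPM in Cd4 cells, 40.5-fold lower. Ly6c1 was 33.6-fold lower. With Cd8 cells taken by coreceptor UMIs the log2 ratios of Pdlim4 and Ly6c1 went from -4.96 and -4.94 to -5.62 and -5.65. Cd40lg was at 15 against 121 CPM (8.08-fold), and in Cd8 cells with CD8 UMIs alone it was at 7.09 CPM. Igfbp4, a binding protein of insulin-like growth factors carried by naive T cells, was at 291 against 1757 CPM (6.03-fold) and was seen in 51.1% against 90.2% of cells. It was listed at 0 in all tumor cells. Dusp10, a phosphatase of stress-activated kinases, was at 51.6 against 270 CPM. Trat1, an adaptor of the receptor complex, was at 19.0 against 81.9 CPM. Ifngr2, the signalling chain of the interferon gamma receptor, was at 25.7 against 102 CPM and listed at 0 in the tumor. The others of the 12 lowest, Tmem64, Trib2, Tspan32, Tgfbr3 and Nxpe3, were 3.18 to 9.22 times lower.

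Gene lists, chosen with earlier results of these data known, place these genes by function, and each list median is read beside the -0.07 of all genes. In the CD8 lineage list 8 of 11 counted members were higher and 0 lower, with a median log2 ratio of 2.73. Beside Nkg7, Ly6c2, Eomes and Cst7 these were Itgae (the alpha chain of CD103, 45.8 against 0.778 CPM), Ctsw (the protease cathepsin W, 363 against 60 CPM), Xcl1 (a chemokine that draws cross-presenting dendritic cells, 38.0 against 7.12 CPM, with 176 of its 689 UMIs in 1 cell) and Gzmm. Runx3 was at 74.7 against 49.1 CPM and did not reach 2-fold. Granzyme M (Gzmm) had 403 UMIs, held by 198 of the 2788 Cd8 cells (7.10%), and 0 UMIs in Cd4 cells. Against a floor of 3 UMIs over the label it was at least 66.7-fold higher. Treg cells also had 0 UMIs, and the same floor gave a gap of at least 14.1-fold. In the CD4 helper list 0 of 12 were higher and 4 lower, with a median of -0.52: Zbtb7b (2.32 against 31.0 CPM), Cd40lg, St8sia6, a sialyltransferase (1.43 against 41.7 CPM), and Ramp1, a partner of the receptor for the neuropeptide CGRP (50.9 against 122 CPM).

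The memory and innate-like list had 13 of 16 members higher and 1 lower, with a median of 3.06. Ccl5 stood at 845 against 148 CPM, but 32.7% of Cd8 and 1.17% of Cd4 cells held it, so that a small number of Cd4 cells carried their sum. Cxcr3, a receptor for interferon-induced chemokines, was at 40.6 against 1.11 CPM, Cd160 at 40.3 against 1.78 CPM and Cd44 at 36.0 against 9.23 CPM. Fasl was the member that was lower, at 11.1 against 24.3 CPM. Of the granule list 4 of 9 were higher and 1 lower, with a median of 0.65. The killing proteins themselves were low: Gzmb was at 5.79 CPM in Cd8 cells, Gzma at 17.5 (126 of its 317 UMIs in 1 cell) and Prf1, perforin, at 22.8 CPM.

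The naive and homing list, in contrast, had 0 of 19 members higher and 2 lower (S1pr1 and Igfbp4), with a median of -0.35. Ccr7, the chemokine receptor of lymph node entry, was at 412 against 601 CPM, Tcf7 at 315 against 368 and Lef1 at 236 against 462 CPM. S1pr1, the sphingosine phosphate receptor of T cell exit, was at 109 against 276 CPM. The interferon response list had 1 of 24 higher (Mx1, 21.2 against 5.0 CPM), 0 lower and a median of 0.04, which was -0.03 without cells that held B cell or myeloid markers. MHC class I and peptide loading genes (18 counted), the CD3 complex with its proximal kinases (19), survival genes of the BCL2 family and their neighbours (15) and proliferation genes (5) had no member past 2-fold in either direction. Of 14 chemokine receptors and integrins, 4 were higher (Cxcr3, Cxcr6, Itgae and Itgb1) and 1 lower (S1pr1), with a median of 0.00.

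**Figure D2:**
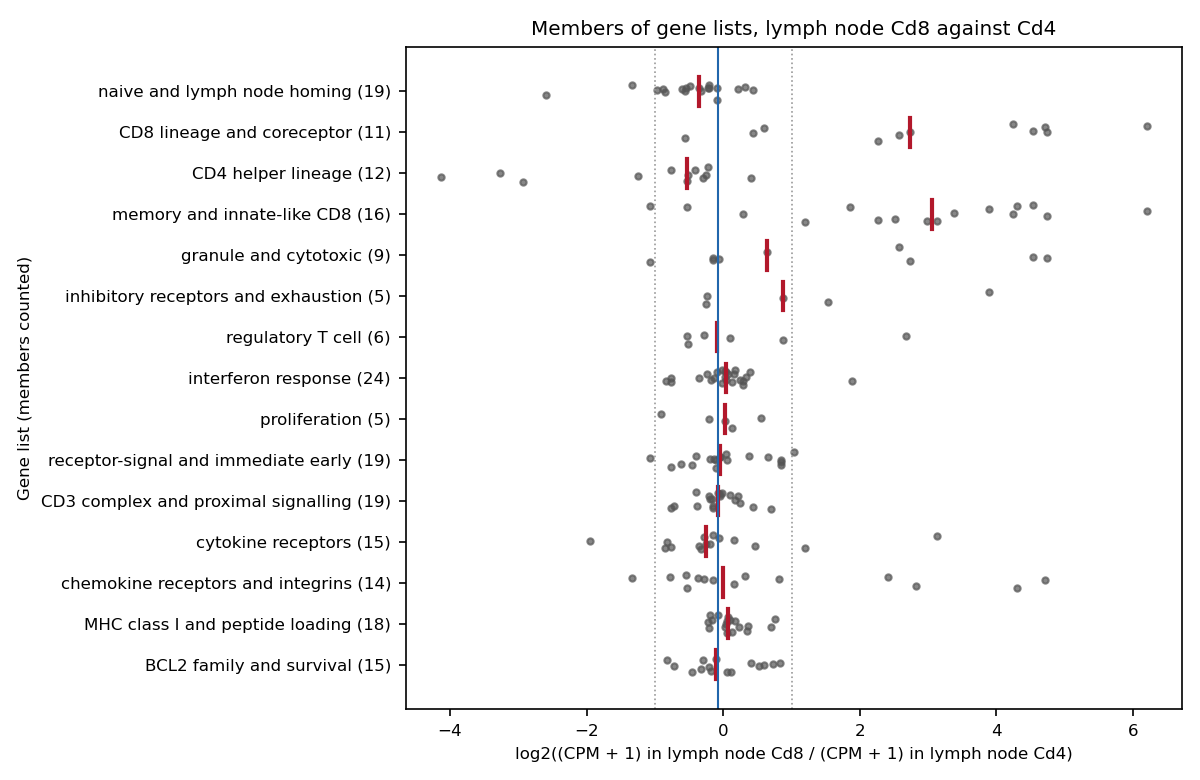
Log2 ratio of CPM + 1 between lymph node Cd8 and Cd4 cells for each counted member of 15 gene lists; red bars are list medians, the blue line is the median of all counted genes and dotted lines mark 2-fold. The CD8 lineage and memory lists have medians of 2.73 and 3.06, and the naive list lies at -0.35.

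Against each of the 4 other labels at once, with 20 CPM or more in Cd8 cells, 11 of 4166 genes (0.264%) were at least 2-fold higher in lymph node Cd8 cells. Of these, 2 were listed at 0 in the tumor (Tmem108 and a predicted gene). Gzmm was seen in only 7.10% (6.18 to 8.12) of Cd8 cells, with 1 UMI in 116 of those 198 cells. It stood at 22.2 CPM in Cd8 cells, just over the minimum, 0 in lymph node Cd4 and Treg cells, 1.15 in tumor Tdp and 0.430 CPM in tumor Cd4 cells. Cd7, an immunoglobulin-family surface protein of T and NK cells, was at 205, 55.8, 85.6, 23.6 and 3.58 CPM in the same order. Sidt1, a transmembrane protein of the family linked to RNA uptake, was at 165, 41.2, 47.3, 15.7 and 10.7 CPM. Cd226, the costimulatory receptor DNAM-1, was at 50.2, 18.5, 21.5, 17.7 and 12.7 CPM. Tmem108 stood at 106 CPM in Cd8, 26 in lymph node Cd4 and 14.2 CPM in Treg cells. Fam241a (48.3 CPM in Cd8 cells), Lcn4 (67.0), Fgf13 (26.2), Ppic (41.6) and Actn2 (32.8) completed the named set. Genes that tumor cells also carry, such as Nkg7 and Ly6c2, cannot pass this rule. Nkg7 was seen in 100% of tumor Tdp and 97.8% of tumor Cd4 cells, and Ly6c2 in 98.8% and 61.4%.

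Beside the regulatory T cells of the same node, 79 of 5147 genes (1.53%) were higher in Cd8 cells and 517 (10.0%) lower. The split depended on scaling: 13.3% of the calls were higher with the total as scale, 39.7% with TMM factors (163 higher, 248 lower) and 29.9% with a total that leaves out receptor, mitochondrial and ribosomal protein genes. Over all counted genes the median ratio was -0.38 on the log2 scale, and 0.07 with TMM. All 12 members of the regulatory T cell list were called lower in Cd8 cells, with a median of -3.98, and of -3.64 with TMM and -3.76 with the reduced total. Foxp3, the regulatory lineage factor, was at 2.48 CPM in Cd8 and 394 CPM in Treg cells, 159-fold lower, and was seen in 1.08% of Cd8 cells. The named genes lower in Cd8 cells were, besides Foxp3, Lrrc32 (0.276 against 117 CPM), Il2ra (3.26 against 346 CPM), Tnfrsf4 (18.6 against 1236 CPM) and the immunoglobulin gene Igkc (0.221 against 91.4 CPM). Igkc is itself a B cell marker, and its log2 ratio went from -6.24 to -1.07 without cells that held B cell or myeloid markers. That filter left out 190 of the 321 Treg cells, and 52 when Ighm was not counted. With Ighm counted, it moved the ratio of Ly6c2 from 3.63 to 4.99. Taking Cd8 cells by coreceptor UMIs moved that of Tnfrsf4 from -5.98 to -7.21. Those higher were Atp8b4 (53.6 against 2.10 CPM), Ccl4 (59.9 against 3.68 CPM), Ly6c2, Eomes and Plac8. Itgae was lower in Cd8 than Treg cells, at 45.8 against 172 CPM, and S100a6 was at 232 against 1413 CPM. The Treg label was itself mixed in coreceptor UMIs, with Cd8a in 17.1% of its cells. The part of those cells in the ratios was not tested.

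Of tumor Tdp cells, 75.3% held UMIs of Cd4 together with Cd8a or Cd8b1 and 20.6% held CD8 UMIs alone. For the 406 tumor Tcell-labelled cells these shares were 20.2% and 27.1%. Cd8a stood at 509 CPM in lymph node Cd8 and 751 in Tdp cells, and Cd8b1 at 1144 and 1118 CPM. Tissue, library and the transgenic or endogenous origin named in the titles differ together between these labels. Their effects cannot be told apart from that of the label. Of 4837 genes, 248 (5.13%) were higher in lymph node Cd8 cells and 552 (11.4%) lower. Higher genes made up 31.0% of the calls with the total as scale, but 58.1% (479 higher, 346 lower) with the reduced total, which moved the median of all genes from -0.17 to 0.18. In the naive and homing list 18 of 19 members were higher and 0 lower, with a median of 5.27: Ccr7 was at 412 against 0.603 CPM, Tcf7 at 315 against 2.03 and Dapl1 at 390 against 0.932 CPM. Of 14 granule genes, 11 were lower and 1 higher, with a median of -2.39. Gzmb was at 5.79 against 3056 CPM, a 527-fold difference, while Gzmm was at 22.2 against 1.15 CPM. Inhibitory receptor genes had 9 of 10 members lower and 0 higher, with a median of -3.87. These lists kept the sign of their medians under every alternative run. The named genes were, on the higher side, Igfbp4 and Tmem108 (listed at 0 in the tumor), Ccr7, Dapl1 and Nsg2 (177 against 0.274 CPM), and on the lower side Gzmb, the metallothioneins Mt1 (3.53 against 1551 CPM) and Mt2 (0.276 against 178 CPM), Spp1 (0.0552 against 222 CPM) and Lgals3 (6.79 against 1259 CPM).

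Within the Cd8 cells, counts thinned to 2000 UMIs per cell showed which genes varied most between cells. The ratio of variance to mean, near 1 for pure counting noise, had a median of 1.01 over 6524 genes. Ccl5 had the highest value, 22.1, and the tenth of cells richest in it, by unthinned counts, held 85.1% of its UMIs. Lars2 (9.31), Ifi27l2a (6.30), Xcl1 (6.11), AY036118 (5.68), S100a6 (5.35) and Ccl4 (3.55) followed. Lars2 encodes a mitochondrial tRNA synthetase. Ifi27l2a and Isg15 (2.80) are interferon-induced, and the remaining genes of the 12 were Tmsb10, Actb, Tmsb4x and Ly6c2, with values of 2.84 to 2.97. At 2000 UMIs Ccl5 was seen in 23.5% of cells, Ccl4 in 5.07% and Xcl1 in 3.29%.

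The cells were split by Ccl5, 913 with at least 1 UMI (32.7%, 31.0 to 34.5) and 1875 with none. Of the 913, 241 held exactly 1 UMI and 339 held 10 or more, up to 247. Their median depth was 6947 UMIs against 6077. Of 4346 other genes, 22 (0.506%) were higher and 17 (0.391%) lower in the Ccl5-positive cells, with a median log2 ratio of -0.06. Gzmm had the largest ratio, at 51.0 against 6.34 CPM (8.05-fold). Ctla2a (104 against 29.2 CPM), Ccl4 (111 against 31.5), Xcl1 (69.9 against 20.4), Eomes (83.7 against 34.1) and Myo1f, a myosin of immune cells (54.7 against 25.9), were also past 2-fold. For Xcl1, 1 Ccl5-positive cell held 176 UMIs, and the ratio without that cell was not computed. In thinned counts Xcl1 was seen in 8.15% of Ccl5-positive and 1.80% of Ccl5-negative cells. Ahnak, Il2rb, S100a6, St3gal6, Dennd4a and Hopx completed the 12 highest at 1.70 to 1.83 times. In the memory list 9 of 20 members were higher and 0 lower, with a median of 0.82.

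On the other side stood Itgae (15.8 against 62.3 CPM), Ctla4 (28.5 against 108), Cd74, the MHC class II invariant chain (19.7 against 64.2), Izumo1r, which encodes folate receptor 4 (29.3 against 83.5), Ramp1 (24.5 against 65.6), Igfbp4 (165 against 361), Arhgap31 (24.7 against 53.9) and Rgcc (188 against 383 CPM). Naive genes other than Igfbp4 did not pass 2-fold: of 19, 0 were higher and 1 lower, with a median of -0.28. At 2000 UMIs, Ccr7 was seen in 37.1% (33.4 to 40.9) of Ccl5-positive and 50% (47.9 to 52.2) of Ccl5-negative cells. Without cells that held a Cd4 UMI, 22 genes were higher and 14 lower. Eomes-positive cells, 611 of the 2788 (21.9%, 410 of them with a single UMI), crossed with this split: at 2000 UMIs Eomes was seen in 14.3% (11.7 to 17.2) of Ccl5-positive and 5.87% (4.91 to 6.96) of Ccl5-negative cells.

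Ctla4, an inhibitory receptor that activated and regulatory T cells carry, was low where Ccl5 was high, and a second split by it was made after these values were seen. It was detected in 565 Cd8 cells (20.3%, 18.8 to 21.8), 223 of them with 1 UMI. The share was 12.5% of lymph node Cd4 and 86.9% of Treg cells. Depth was alike on the sides of the split, with medians of 6255 and 6323 UMIs. Of 4612 other genes, 105 (2.28%) were higher and 12 (0.260%) lower in the Ctla4-positive cells, with a median log2 ratio of 0.19. Higher were Cd83, an activation antigen (74.5 against 6.34 CPM), Wnt10a, a secreted WNT ligand (57.5 against 4.74), Tnfrsf4 (62.6 against 7.04), Izumo1r (198 against 29.1), Cd74 (148 against 22.2), Ikzf2, the factor Helios (97.5 against 17.1), and Bhlhe40 (74.5 against 14.4 CPM). Capg, Icos, Tspan32, Egr2 and Itgae were 3.1 to 3.5 times higher. Lower were Ccl5 (325 against 981 CPM), Eomes (23.1 against 59.3), Sgk1 (39.8 against 91.0), Plac8 (186 against 408) and, at 1.95 to 2.00 times, Ly6c2, Srm, Rras2 and Lcn4. Because Ctla4 was picked as low in Ccl5-positive cells, the lower Ccl5 restates that choice and is not a separate result.

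Cells with Cd4 UMIs were more common on the Ctla4 side, at 13.4% of the 477 cells with Ctla4 and no Ccl5 against 3.22% of the 1398 cells with neither. Foxp3 was seen in 3.14% of these 477 cells. Cd8b1 was seen in 87.2% of them, against 96.6% of the cells with neither. Without Cd4-positive cells, 496 Ctla4-positive and 2164 Ctla4-negative cells remained, and 90 genes were higher and 11 lower. Cd83 was then at 64.4 against 5.55 CPM, Wnt10a at 55.0 against 4.04, Izumo1r at 178 against 24.4, Cd74 at 145 against 19.9 and Ikzf2 at 95.7 against 16.6 CPM. Tnfrsf4 was at 30.7 against 3.32 CPM, lower on both sides than the 62.6 and 7.04 CPM of the split of all Cd8 cells. The inhibitory receptor list had 5 of 7 members higher in the split of all Cd8 cells (Pdcd1, Lag3, Tigit, Tox and Btla), and without Cd4-positive cells Pdcd1 stood at 23.1 against 3.89, Lag3 at 32.8 against 3.89 and Tox at 72.9 against 30.9 CPM. Tigit was then at 19.7 against 11.9 CPM, under 2-fold, and Btla was not recomputed. In the split of all Cd8 cells the regulatory T cell list had 4 of 5 members higher and 0 lower, with a median of 2.45. The CD4 helper list had 6 of 11 higher and 0 lower, with a median of 1.28, and shares Tnfrsf4 and Izumo1r with it. Without Cd4-positive cells Foxp3 was at 6.99 against 0.865 CPM and Cd40lg at 24.9 against 4.47 CPM.

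The overlap of Ccl5 and Ctla4 in single cells was counted last. It describes the same cells from which Ctla4 was picked, so a small overlap followed from that choice. At 2000 UMIs, Ctla4 was found in 3.08% (1.89 to 4.71) of Ccl5-positive and 14.3% (12.9 to 15.9) of Ccl5-negative cells. With all UMIs the shares were 9.64% and 25.4%. By all UMIs, 825 cells held Ccl5 alone, 477 Ctla4 alone, 88 both and 1398 neither. The class with neither gene was the richest in Igfbp4 (412 CPM, against 166 with Ccl5 alone and 222 with Ctla4 alone). Ly6c2 ran from 1478 CPM with Ccl5 alone through 1091 with neither to 553 CPM with Ctla4 alone. S100a6, among the 12 highest of the Ccl5 split, was not particular to the Ccl5 side. Its level was 299 CPM with Ccl5 alone, 318 with Ctla4 alone, 511 with both and 134 with neither.

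**Figure D3:**
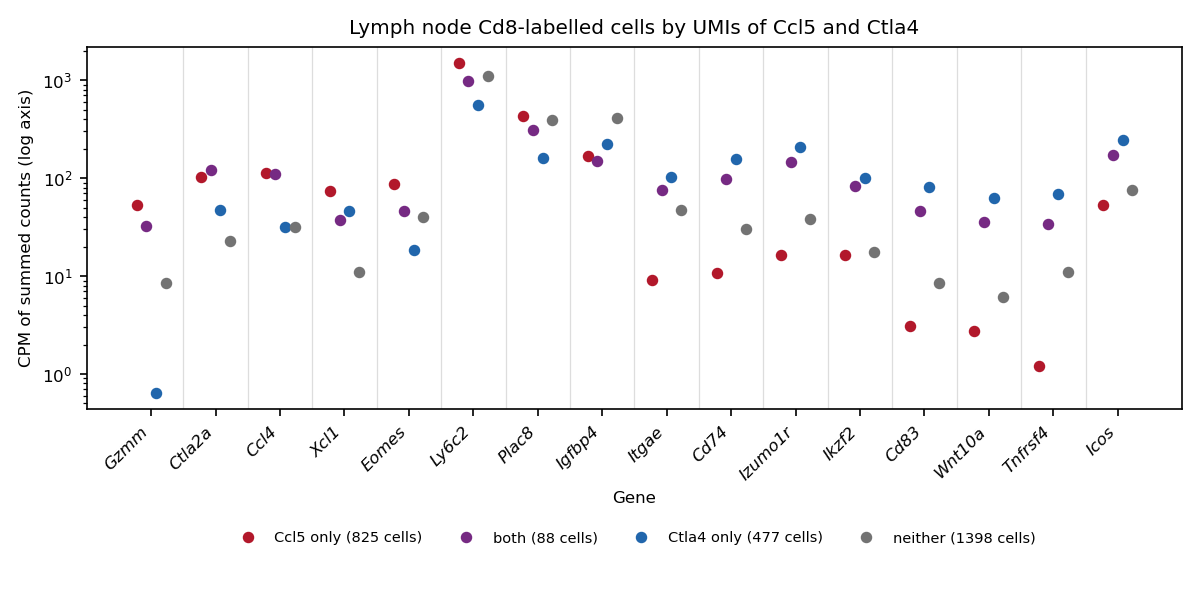
Levels of 16 genes in CPM on a log axis in the 4 classes of lymph node Cd8-labelled cells drawn by UMIs of Ccl5 and Ctla4; each point is a sum over the cells of a class. Gzmm, Ccl4 and Eomes are higher with Ccl5 alone than with Ctla4 alone, and Cd74, Izumo1r, Cd83, Wnt10a and Tnfrsf4 are lower.

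The receptors of the Cd8 cells were nearly all different. A clonotype was called in 2669 of 2788 cells (95.7%), with 2655 distinct clonotypes, and the most common was found in 3 cells. No alpha chain was found in 16.3% of the called cells. By beta CDR3 alone, 48 of 2720 sequences were found in 2 or more cells, against 12 clonotypes. Among called cells with Ccl5 alone there were 774 clonotypes in 775 cells, and with Ctla4 alone 470 in 471 cells. Beta variable segments, read from the RNA library as the segment with the most UMIs in a cell, could be assigned in 2586 Cd8 and 1724 lymph node Cd4 cells. For 11 of 24 segments the intervals of the labels did not overlap, 6 more common and 5 less common in Cd8 cells. Trbv12-1 was used by 8.78% (7.72 to 9.94) of Cd8 and 1.51% (0.987 to 2.20) of Cd4 cells, and Trbv29 by 7.66% and 1.39%. Trbv12-2 was used by 5.92% and 1.45%, and its reads can be confused with those of Trbv12-1. Trbv13-1, Trbv14 and Trbv17 were also more common. Trbv31 was less common, at 2.55% (1.98 to 3.24) against 9.45% (8.11 to 10.9), as were Trbv3 (6.23% against 10.5%), Trbv2 (2.71% against 6.15%), Trbv26 and Trbv5. With segments taken only at 2 or more UMIs, Trbv5 stood at 0.948% (0.602 to 1.42) and 2.03% (1.39 to 2.85), and its intervals overlapped.

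**Figure D4:**
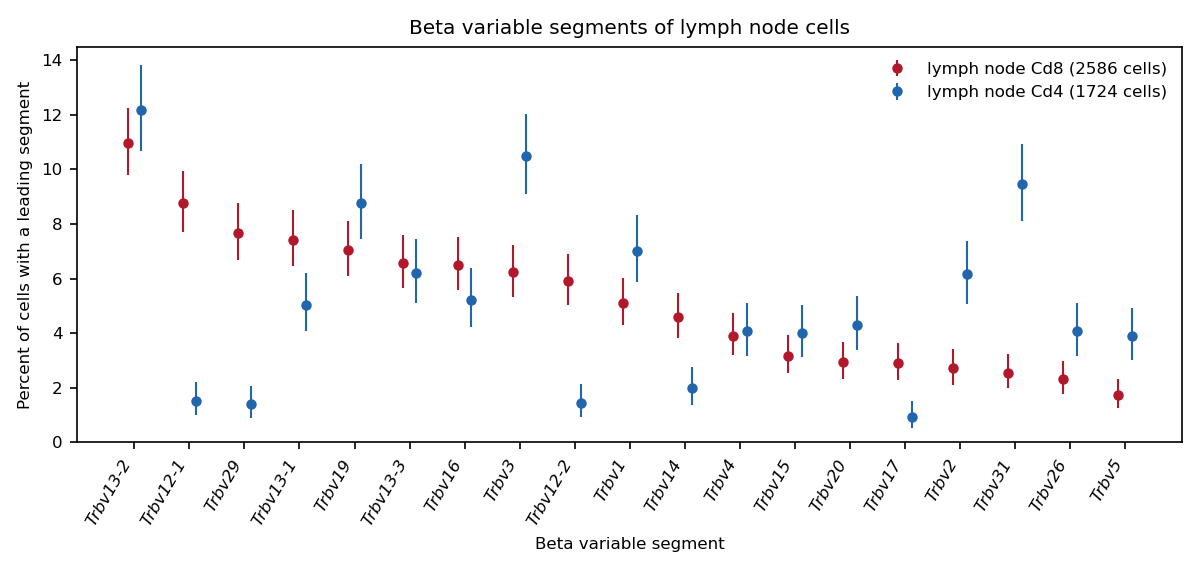
Percent of cells by leading beta variable segment in lymph node Cd8 and Cd4 cells, for segments at 1% or more in either label; bars are exact 95% binomial intervals for counting error. Trbv12-1 and Trbv29 are more common in Cd8 cells (8.78% and 7.66%), and Trbv31 and Trbv3 in Cd4 cells (9.45% and 10.5%).

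The beta chain CDR3, the loop that meets the peptide, was 13.9 ± 1.47 residues long in Cd8 cells (SD over 2425 cells with 1 beta chain) and 13.8 ± 1.38 in 1660 Cd4 cells. Loops of 16 or more residues made up 11.1% (9.87 to 12.4) and 8.07% (6.81 to 9.49). A net positive charge was found in 10.2% (9.05 to 11.5) of Cd8, 8.73% (7.42 to 10.2) of Cd4 and 15.6% (11.3 to 20.8) of Treg cells. Hydrophobic residues at position 6 or 7 were found in 26.8% (25.1 to 28.7), 23.4% (21.4 to 25.5) and 30.5% (24.7 to 36.7). In cells with exactly 1 alpha and 1 beta chain, loops of 16 or more residues made up 10.9% (9.47 to 12.4) and 7.97% (6.56 to 9.57), with overlapping intervals. For charge and hydrophobicity too the intervals of Cd8 and Cd4 cells overlapped. With Ccl5 alone 28.3% and with Ctla4 alone 23.1% of cells held such a hydrophobic residue, again with overlapping intervals.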

How the data were processed

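Gene expression and receptors were measured in single cells by 10x Genomics 5′ libraries, per the labels' protocols. The authors deposited raw UMI counts per gene and cell, with both tissues in 1 table, and an annotation of other values: library, cell label, clonotype and CDR3 sequences. Cell Ranger 3.1.0 and the build mm10 are named in the submitters' processing notes. No label or file states the filters on cells.

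UMIs were summed per label and scaled to CPM (pandas 2.3.3, numpy 2.4.6). Ratios are log2 of CPM plus a pseudocount of 1. Intervals (scipy 1.17.1) are Poisson for levels, exact conditional for ratios and Clopper-Pearson for shares. PCR and sampling of cells add error that they do not cover. The procedure was tested on simulated data. Among genes with at least 50 CPM on the higher side and at least 100 UMIs, those named were the 12 highest and 12 lowest ratios against lymph node Cd4 cells and 5 against Treg and Tdp cells. They were also the 10 genes highest above all 4 labels and the 12 most variable genes seen in 50 or more cells. Receptor segments, predicted, mitochondrial, ribosomal protein, Y-linked genes and Xist were not named. Other genes are members of the 26 lists. Some genes are not reported here. The members, lists and comparisons were chosen with earlier results of these data known. For the splits, the 12 highest and 8 lowest genes were named by a rule set after the data were seen. Scrublet, run in scanpy 1.11.5, called 1 lymph node and 4 tumor cells, too few for the caller to have worked. Doublets therefore remain. Alternatives were TMM scaling (edgeR 4.0.16), a reduced total, the mean of each cell's CPM, thinning to 2000 UMIs, other minima and pseudocounts, and subsets of cells.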

Additional observations from a re-analysis of the deposited data

How the results depend on the processing

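No paired analysis was possible because each tissue has 1 RNA library, and no replicate could be left out. Of 463 recomputed values of named genes, receptor segments and shares outside the counts below, 372 moved by less than their counting interval, 91 moved by more (41 of them with a pseudocount of 10) and 0 changed direction. Against lymph node Cd4 cells (96 higher, 65 lower), dropping the CPM minimum gave 372 and 184, a minimum of 50 CPM gave 42 and 29, and a pseudocount of 10 gave 39 lower genes. Against Treg cells (79 and 517), TMM scaling gave 163 and 248, the reduced total 131 and 307, no minimum 343 and 1436, and a minimum of 50 CPM 38 and 285. Against tumor Tdp cells (248 and 552), the reduced total gave 479 and 346, no minimum 837 and 1047 (44.4% of calls higher), and a minimum of 50 CPM 121 and 343. The 11 genes above all 4 labels became 18 with the reduced total, 48 without a minimum and 5 at 50 CPM. The share with Cd8a fell to 58.7% at 2000 UMIs and 70.6% at 2 or more UMIs, with Cd8b1 to 84.5% and 91.4%, and with Cd4 to 2.03% and 2.04%. The splits by Ccl5 and Ctla4 were recomputed under alternatives chosen after seeing the data. For Ccl5 (22 and 17), 2 or more UMIs gave 26 lower genes, 2000 UMIs gave 38 and 42, and leaving out cells with B or myeloid markers gave 30 lower. For Ctla4 (105 and 12) these gave 20 lower, 196 and 52, and 21 lower. The cause was not tested. The marker filter left out 1128 Cd8 cells, and 96 when Ighm was not counted, a change added after seeing the data. The number of libraries, and depth for genes under 20 CPM, limit what can be read.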

Other observations

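Transcripts of B cell genes in the Cd8 cells differed by gene. Ighm was seen in 64.4% (62.6 to 66.2) of Cd8, 60.2% (57.9 to 62.4) of lymph node Cd4 and 76.3% (71.3 to 80.9) of Treg cells, against 2.90% of tumor Tdp and 10.8% of tumor Cd4 cells. Cd79b, a signalling chain of the B cell receptor, was seen in 11.3% (10.1 to 12.5) of Cd8 cells and 0.214% of lymph node Cd4 cells, and in 13.1% of Treg cells. Its partner Cd79a was seen in 0.359%, 0.320% and 0.935% of the same cells, and Igkc in 0.143%, 0.107% and 14.6%. At 2000 UMIs per cell Cd79b stood at 3.77% of Cd8 and 0.110% of Cd4 cells. These genes were chosen after their values were seen.

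Dapl1, a gene of naive CD8 cells, was seen in 65.7% (64.0 to 67.5) of Cd8, 47.3% (45 to 49.6) of lymph node Cd4 and 8.41% (5.62 to 12) of Treg cells, and in 0.594% of tumor Tdp cells. Itgae was seen in 17.6% (16.2 to 19.0) of Cd8 cells, 0.267% of Cd4 and 38.3% of Treg cells, and in 0.186% of tumor Tdp cells. Within the Cd8 cells at 2000 UMIs it was seen in 17.6% (13.6 to 22.3) of Ctla4-positive and 6.56% (5.61 to 7.62) of Ctla4-negative cells.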
